A study of Trametes versicolor with 17 samples.

Results

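The comparison was between pellets of Trametes versicolor mycelium, a white-rot fungus, exposed for 72 h (3 days) to 5% of an aqueous phase made from algal biomass (AB) and control pellets without the phase. The groups were chosen by their labels alone, with 3 libraries each, and all gene models were considered. The 6 libraries belong to a series of 17. Of 14296 gene models 10838 passed the filter on low counts and were tested, and 2329 had no count in any of the 6 libraries. Both groups carried the same strain label, ASM 8036, grew in 2% malt extract medium at 28 °C and 135 rpm, and belong to the batch labelled main. The labels call the samples biological replicates and give no pH or water control, so the phase itself and the change of the medium that comes with it cannot be told apart. The other libraries were 3 each with phases from food waste (FW) and salad dressing waste (SD) at 3 days, and, in a batch labelled preliminary, 3 with AB and 2 controls at 7 days.

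Hydrothermal liquefaction makes a crude oil from wet biomass in hot compressed water; what remains in the water, the aqueous phase, is a mix of dissolved organic compounds. White-rot fungi break down lignin with secreted enzymes. Manganese, lignin and versatile peroxidases are heme enzymes that use hydrogen peroxide to oxidise manganese ions or aromatic compounds, dye-decolorising peroxidases act on dyes and phenols, heme-thiolate peroxidases transfer oxygen to many substrates, and laccases are copper enzymes that oxidise phenols with oxygen. The reference table gives a symbol to 42 of the gene models, nearly all of them from these families, and only a locus tag to the others. No function is given here for genes without a symbol.

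Depth was similar in both groups. The control libraries held 15459249 to 18235907 counts and the AB libraries 16383455 to 17177255, and 3 counts corresponded to at most 0.194 counts per 1000000 (CPM). Levels below are CPM on library sizes scaled by TMM, a method that centres the bulk of the genes. Control replicate 2 lay farthest from the others of its group. In bulk RNA, fewer cells that express a gene and less RNA per cell cannot be told apart.

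The AB phase changed the levels of most genes. By edgeR's quasi-likelihood test at a Benjamini-Hochberg adjusted p of 0.05, 6759 genes (62.4% of those tested) differed, 3228 (29.8%) of them higher with AB and 3531 (32.6%) lower. The change was at least 2-fold for 1844 genes that rose (17.0%) and 2010 that fell (18.5%), and it was smaller for the remaining 2905. At least 8-fold changes were found for 325 genes upwards and 396 downwards, and at least 32-fold changes for 63 and 135. The libraries of the 2 groups did not overlap for 6607 (97.8%) of the called genes, and for 7481 of all 10838 tested genes. The test favours genes whose groups lie apart, so this count is not separate support for the calls. The median log2 fold change over all tested genes was -0.06.

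The fallen genes held a large share of the counts in control libraries, and the risen genes held a share of nearly the same size with AB. The genes that fell at least 2-fold held 31.9% ± 0.833 (SD, n = 3) of the counts in control libraries and 7.26% ± 0.0564 in AB libraries. Those that rose at least 2-fold held 7.99% ± 0.476 in control libraries and 32.2% ± 0.297 in AB libraries. These shares describe the genes chosen for their change and carry no test. The shares of a library have a fixed total, so a loss in some genes shows as a gain in others. The genes that were not called held 27.4% ± 0.343 and 28.0% ± 0.242.

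**Figure D1:**
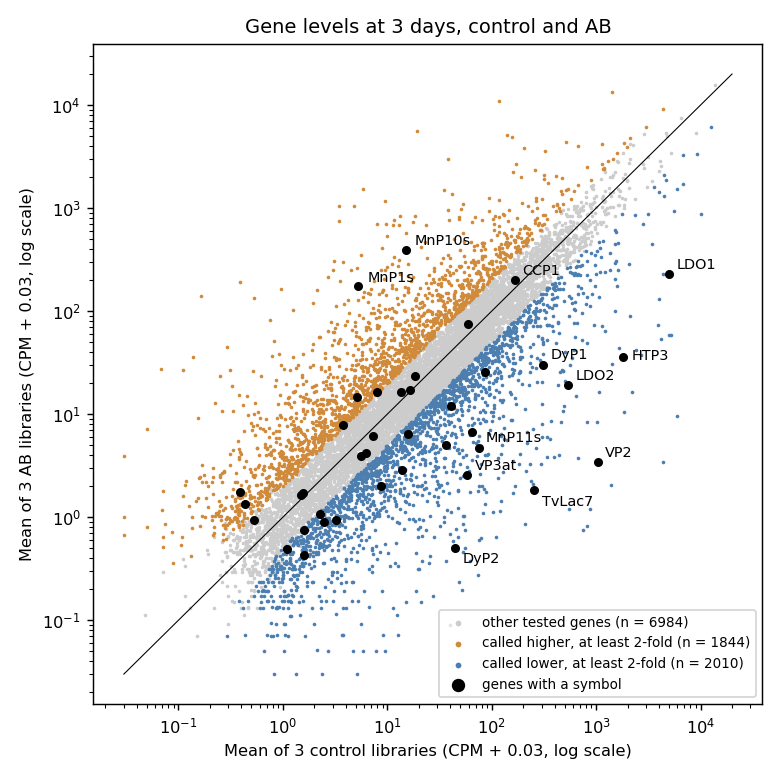
Mean CPM of the 3 control libraries (x axis) against that of the 3 AB libraries (y axis) for the 10838 tested genes, both on log scales after adding 0.03 CPM; the line marks equal levels. The clouds of genes called at least 2-fold higher (1844) and lower (2010) are of similar size, and most of the labelled genes with a symbol lie below the line, with MnP1s and MnP10s above it.

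Among the genes with a symbol, falls outnumbered rises. Of the 42, 40 were tested, and 19 (47.5%) were called lower, 6 (15%) higher and 15 not called, against 32.6% and 29.8% of all tested genes, with a median log2 fold change of -1.14 against -0.06 over all tested genes. The 5 peroxidase families named above counted 31 genes, of which 29 were tested. Of these, 13 (44.8%) were called lower and 6 (20.7%) higher, beside the same 32.6% and 29.8% over all, with a median of -1.10. MnP6s and MnP12s, at 1 to 6 counts in each library, were not tested. Members of these families are similar in sequence, so reads shared between copies make single values uncertain to that extent.

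The versatile peroxidases, which combine the substrates of manganese and lignin peroxidases, all fell, 3 of 3, against 32.6% of all tested genes. Their median log2 fold change was -4.52. VP2 (scaffold 2, 411397 to 413494) stood at 746, 1086 and 1281 CPM in control replicates 1 to 3 and at 3.65, 3.32 and 3.20 CPM in the AB replicates. All AB libraries lay far below all controls, a 306-fold lower mean (log2 fold change -8.26 ± 0.44 SE, edgeR adjusted p 8.42e-09). VP3at, on scaffold 6, had 55.0, 59.8 and 60.1 CPM in controls and 2.52, 1.87 and 3.20 CPM with AB, again without overlap (-4.52 ± 0.70, adjusted p 9.08e-05). VP1 was low in both groups, at 1.21, 1.26 and 2.18 CPM in controls and 0.063, 0.844 and 0.302 CPM with AB, and had a log2 fold change of -1.91 (adjusted p 0.0104).

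The manganese peroxidases moved in both directions: of 11 tested, 5 rose (45.5%, against 29.8% of all tested genes) and 3 fell (27.3%, against 32.6%), and their median log2 fold change was 1.02. MnP10s (scaffold 3, 2713545 to 2714883) had 11.9, 12.4 and 20.6 CPM in the controls and 149, 648 and 368 CPM with AB. MnP1s (scaffold 10, 2036382 to 2037708) had 5.56, 6.02 and 4.13 CPM in the controls and 85.9, 287 and 154 CPM with AB. For both genes every AB library exceeded every control, and the AB replicates kept the same order, replicate 1 lowest and replicate 2 highest. The log2 fold changes were 4.70 ± 0.44 and 5.07 ± 0.41 (edgeR adjusted p 1.04e-06 and 2.97e-07). MnP8s, at 7.92, 8.74 and 7.37 CPM in controls and 16.8, 17.0 and 14.9 CPM with AB, had a log2 fold change of 1.02 (adjusted p 5.16e-04). The risen MnP9s and MnP13 were at most 2.08 CPM in each of the 6 libraries compared, and MnP13 was no longer called once control replicate 1 was left out (adjusted p 0.0536).

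The 3 manganese peroxidases that fell were MnP11s, MnP3s and MnP4s. MnP11s (scaffold 12, 143374 to 145126) had 81.8, 41.4 and 103 CPM in controls and 4.47, 4.88 and 4.77 CPM with AB, and the groups stood well apart (log2 fold change -3.998 ± 0.53, adjusted p 2.46e-05). MnP3s varied among controls, with 21.9, 11.4 and 75.7 CPM, against 4.85, 5.61 and 4.53 CPM with AB. It was lower in every AB library (-2.86 ± 0.68, adjusted p 0.00245), and without control replicate 3, the highest, the log2 fold change was -1.74. MnP4s had 12.4, 11.3 and 17.3 CPM in controls and 2.46, 2.65 and 3.44 CPM with AB (-2.26 ± 0.24, adjusted p 3.44e-06). Within the group of manganese peroxidase genes on scaffold 10 between MnP3s and MnP9s, the genes therefore moved apart, with MnP3s and MnP4s lower and MnP13, MnP8s and MnP9s higher.

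The lignin peroxidases, which oxidise non-phenolic lignin units, stayed low: the highest value of the 10 genes in any of the 6 libraries was 10.2 CPM. Of the 10, 3 fell (LiP1, LiP4 and LiP8), a share near the 32.6% of all tested genes, and 1 rose (LiP6), against 29.8% of all, with a median log2 fold change of -0.41. LiP8 went from 4.18, 2.98 and 2.48 CPM to 0.945, 1.21 and 0.604 CPM (log2 fold change -1.80 ± 0.30, adjusted p 1.88e-04). LiP6 went from 3.797, 3.91 and 3.60 CPM to 6.68, 6.75 and 10.2 CPM (1.06 ± 0.27, adjusted p 0.00364). In both genes the groups did not overlap. The call of LiP4 was lost when any of 4 libraries was left out. LiP12 overlaps a model on the opposite strand, and its value (log2 fold change -0.57, adjusted p 0.0569) may hold reads of that model.

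Both dye-decolorising peroxidases fell, against 32.6% of all tested genes. DyP1 (scaffold 7, 2124895 to 2126685) had 332, 287 and 312 CPM in controls and 28.6, 31.3 and 30.8 CPM with AB, a log2 fold change of -3.36 ± 0.22 (adjusted p 4.47e-08). DyP2, on the same scaffold at 2137219 to 2139041, had 46.1, 34.7 and 52.7 CPM in controls and 0.567, 0.663 and 0.181 CPM with AB (-6.55 ± 0.86, adjusted p 2.21e-05). In each gene the replicates of a group lay close together beside the gap between the groups.

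Of the 3 heme-thiolate peroxidases, HTP2 and HTP3 fell, against 32.6% of all tested genes, and HTP1 did not pass the test. HTP3 (scaffold 12, 883884 to 884984) had 1758, 1757 and 1906 CPM in controls and 34.6, 35.1 and 38.7 CPM with AB, a 50.02-fold lower mean with little spread (log2 fold change -5.64 ± 0.23, adjusted p 7.72e-10). HTP2 ends just before HTP3 on the same strand, and had 63.6, 77.1 and 51.5 CPM in controls and 7.62, 4.64 and 7.61 CPM with AB (-3.27 ± 0.23, adjusted p 8.93e-08). HTP1, on scaffold 3, overlapped between groups at 31.8 to 95.3 CPM in controls and 58.4 to 93.2 CPM with AB (0.33 ± 0.37, adjusted p 0.459). CCP1, a cytochrome c peroxidase by its symbol (in baker's yeast a mitochondrial enzyme), likewise overlapped, with 186, 111 and 207 CPM against 167, 234 and 194 CPM (0.24 ± 0.26, adjusted p 0.435).

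None of the 8 laccases and multicopper oxidases rose, against 29.8% of all tested genes, and 4 fell, against 32.6%, with a median log2 fold change of -1.53. That median lies between TvLac3 (-1.76) and TvLac1 (-1.31), neither of which was called. Without control replicate 2 both were above 0 (0.23 and 0.36), so the median rests on that library and does not describe a fall of the whole family. TvLac7 (scaffold 6, 160728 to 162937) had 206, 193 and 371 CPM in controls and 2.46, 1.33 and 1.69 CPM with AB, a gap of 141-fold between the means (-7.13 ± 0.41, adjusted p 1.38e-08). TvLac5 went from 9.08, 9.86 and 7.01 CPM to 2.83, 0.904 and 2.24 CPM (-2.12 ± 0.44, adjusted p 9.99e-04). TvLac6 had a log2 fold change of -0.52 (adjusted p 0.0286). TvFet3A, a Fet3-type oxidase by its symbol (in baker's yeast Fet3 serves iron uptake), had 24.6, 68.8 and 28.5 CPM in controls and 18.8, 5.73 and 11.2 CPM with AB, and had a log2 fold change of -1.77 (adjusted p 0.0215). The count of 4 went down to 2 without control replicate 2 or without AB replicate 2, TvLac6 and TvFet3A being the calls at stake.

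Control replicate 2 stood apart in several laccase genes. TvLac3 had 216 CPM there against 21.3 and 22.04 CPM in the other controls and 20.3 to 29.3 CPM with AB. TvLac1 had 37.5 CPM there against 5.23 and 4.598 CPM, with 4.52 to 8.12 CPM in the AB libraries. TvLac2 had 38.0 CPM there against 7.87 and 3.18 CPM, and one AB library was high as well, at 37.0 CPM against 6.63 and 8.04 CPM. None of the 3 was called, and without control replicate 2 their log2 fold changes turned from -1.76, -1.31 and 0.08 to 0.23, 0.36 and 1.63. TvLac4, at 15.8, 24.2 and 14.9 CPM in controls and 31.997, 17.9 and 19.998 CPM with AB, was not called either (adjusted p 0.334).

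The 2 genes with the symbol LDO were among the abundant genes that fell, beside 32.6% of all tested genes called lower. LDO1 (scaffold 1, 623274 to 628182) had 5187, 3807 and 6026 CPM in controls and 214, 243 and 229 CPM with AB (log2 fold change -4.45 ± 0.23, adjusted p 7.36e-09). LDO2 (scaffold 6, 458124 to 462878) had 527, 668 and 420 CPM in controls and 19.1, 17.8 and 19.9 CPM with AB (-4.83 ± 0.20, adjusted p 7.30e-10). In both, the controls spread over a wider range than the AB libraries, and no library of one group came near those of the other.

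**Figure D2:**
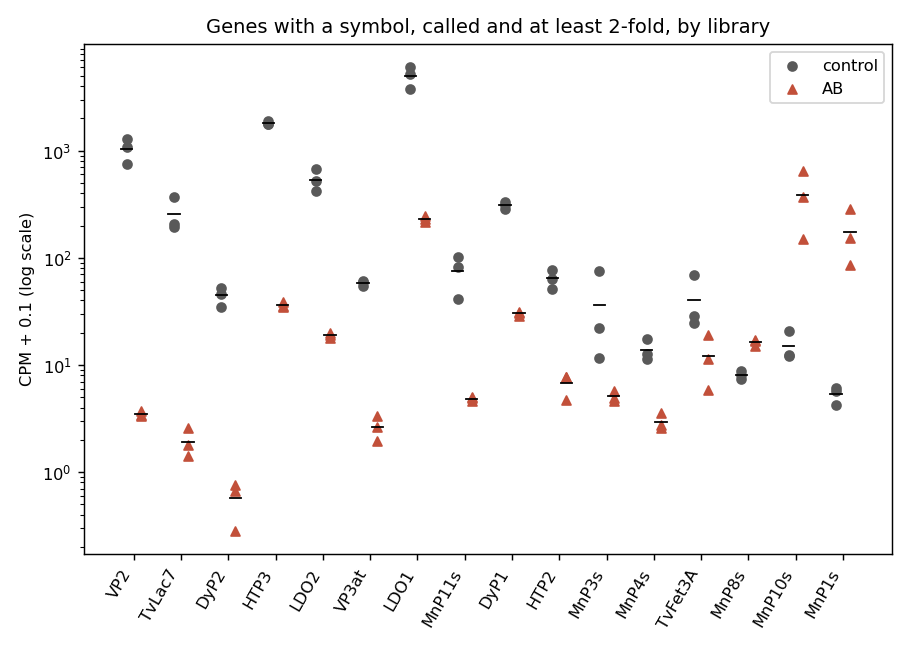
CPM plus 0.1 in each library, on a log scale, of the 16 genes with a symbol that were called, changed at least 2-fold and had a mean of at least 10 CPM in one group, in order of log2 fold change; bars mark the means of 3 libraries. No gene shows an overlap between control and AB libraries; MnP8s, MnP10s and MnP1s are higher with AB, and the AB libraries of MnP10s and MnP1s spread over more than a factor of 3.

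The largest changes were in genes without a symbol. The 6 largest falls among genes that averaged 10 CPM or more in one group without overlap were TRAVEDRAFT_174721, TRAVEDRAFT_42584, TRAVEDRAFT_52920, TRAVEDRAFT_86104, TRAVEDRAFT_75109 and TRAVEDRAFT_65852, with log2 fold changes from -10.32 to -9.27 (adjusted p at most 1.48e-08). TRAVEDRAFT_52920 (scaffold 12) had 776, 445 and 1242 CPM in controls and 0.945, 0.723 and 0.725 CPM with AB. TRAVEDRAFT_86104 (scaffold 9) had 494, 1123 and 999.3 CPM in controls and 1.32, 1.15 and 1.03 CPM with AB. TRAVEDRAFT_75109 (scaffold 13, 1188876 to 1191705) had 1058, 1426 and 1631 CPM in controls and 2.08, 1.51 and 2.42 CPM with AB. All 6 went from at least 445 CPM in every control library to at most 10.6 CPM in every AB library.

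The 6 largest rises by the same rule were TRAVEDRAFT_51486, TRAVEDRAFT_54052, TRAVEDRAFT_171861, TRAVEDRAFT_48684, TRAVEDRAFT_119225 and TRAVEDRAFT_136728, with log2 fold changes from 9.92 to 8.22 (adjusted p at most 1.27e-06). TRAVEDRAFT_171861 (scaffold 9, 1613413 to 1615364) had 0.330, 0.331 and 0.413 CPM in controls and 131, 247 and 195 CPM with AB. TRAVEDRAFT_136728 (scaffold 16, 649466 to 651746) had 4.02, 2.38 and 3.95 CPM in controls and 782, 1283 and 1046 CPM with AB. The other 4 were at or below 0.275 CPM in every control library, so their folds rest on few control counts. TRAVEDRAFT_54052 had 2 counts over the controls and 1342 over the AB libraries, a ratio with a 95% counting interval of 190 to 5686. TRAVEDRAFT_119225 (scaffold 4) spread more among the AB libraries, at 8.88, 48.0 and 23.7 CPM, in the same order of replicates as MnP1s and MnP10s.

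By the amount of transcript, the largest gain was that of TRAVEDRAFT_123691 (scaffold 6, 139934 to 141556), from 1320, 1814 and 1074 CPM to 14436, 12367 and 13490 CPM (log2 fold change 3.26 ± 0.25, adjusted p 1.54e-07). TRAVEDRAFT_26150 (scaffold 1, 4867401 to 4869360) rose from 55.3, 226 and 66.7 CPM to 10904, 10421 and 11197 CPM (6.55 ± 0.67, adjusted p 2.37e-06). Control replicate 2 was again the highest control, and without it the log2 fold change of TRAVEDRAFT_26150 was 7.47. TRAVEDRAFT_153507 (scaffold 10) rose from 18.9, 24.2 and 14.6 CPM to 5368, 5712 and 5669 CPM (8.18 ± 0.28, adjusted p 3.44e-10). TRAVEDRAFT_37921 (scaffold 7) rose from 145, 169 and 103 CPM to 5056, 5279 and 4974 CPM (5.197 ± 0.30, adjusted p 1.32e-08). In all 4 genes the AB libraries agreed closely and exceeded every control.

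The largest losses in CPM were of genes that led the control libraries. TRAVEDRAFT_68340 (scaffold 1) fell from 10269, 7693 and 12541 CPM to 916, 819 and 892 CPM (log2 fold change -3.54 ± 0.19, adjusted p 9.22e-09). TRAVEDRAFT_65852 (scaffold 8, 2331745 to 2334257), also among the largest falls, went from 6537, 5688 and 5530 CPM to 9.01, 9.16 and 10.6 CPM (-9.27 ± 0.26, adjusted p 9.54e-11). TRAVEDRAFT_30062, on the same scaffold, went from 9995, 14040 and 13704 CPM to 6479, 5648 and 6336 CPM (-1.03 ± 0.19, adjusted p 3.23e-04). TRAVEDRAFT_32245 (scaffold 16) went from 8818, 7627 and 11009 CPM to 3444, 3316 and 3202 CPM (-1.46 ± 0.15, adjusted p 3.02e-06). The last pair stayed abundant with AB, whereas TRAVEDRAFT_65852 almost left the transcript pool.

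Changed genes lay on every large scaffold. Among the 17 scaffolds with at least 100 tested genes, the share called higher ran from 24.6% on scaffold 16 to 33.3% on scaffold 7, and the share called lower from 27.9% on scaffold 11 to 38.9% on scaffold 16. Scaffold 1, the one with the most tested genes (1492), had 25.9% higher and 36.5% lower, against 29.8% and 32.6% over all. Within 50 kb of the outermost models of the 16 scaffolds that span at least 500 kb, 316 genes were tested, with 27.8% higher and 33.2% lower. Their neighbours farther in had 29.9% higher and 32.7% lower. These shares are descriptions, and no test was run between scaffolds or between ends and interior.

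Neighbouring genes more often moved the same way than the overall numbers of rises and falls give. Of 4311 pairs of adjacent tested genes in which both were called, 60.7% had the same direction, against 50.1% from the overall numbers. Where both changed at least 2-fold, the share was 67.4% of 1535 pairs. The share went down to 55.3% for genes 2 apart, 53.1% for 3 apart, 51.7% for 5 apart and 49.8% for 30 apart. By orientation, divergent neighbours, whose starts face each other, shared direction in 63.5% of 1106 pairs, neighbours on the same strand in 62.5% of 2137, and convergent neighbours in 54.1% of 1068. With both at least 2-fold the shares were 73.2%, 68.2% and 60.2%. Neighbouring pairs share genes and the strand setting of the counting is not given, so these shares are descriptions and carry no p. Divergent neighbours 2000 bases or more apart still shared direction in 61.004% of 259 pairs.

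**Figure D3:**
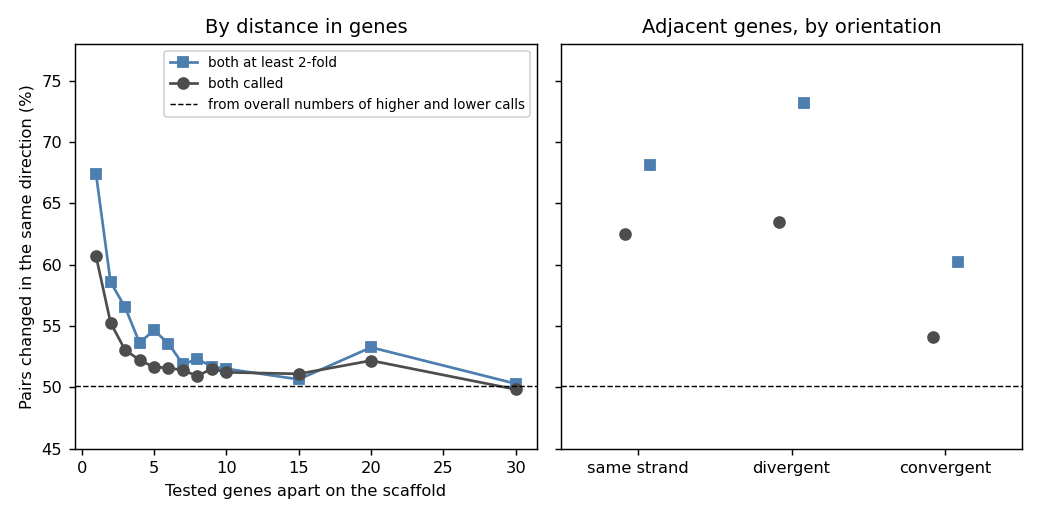
Share of pairs of called genes that changed in the same direction (y axis, %), left by the number of tested genes between their places on the scaffold and right for adjacent genes by orientation; grey points are pairs both called, blue squares pairs both called and changed at least 2-fold, and the dashed line is the share from the overall numbers (50.1%). The share for called pairs falls from 60.7% for adjacent genes to 49.8% at 30 genes apart, and in the right panel convergent pairs are lowest.

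Runs of at least 4 adjacent tested genes that all changed in one direction by at least 2-fold were counted next. There were 72, of which 23 were runs of risen genes (119 genes) and 49 runs of fallen genes (246 genes). The longest lower run held 12 genes on scaffold 7 between 2237974 and 2276972, over 39.0 kb, with a median log2 fold change of -4.06. Its first gene, TRAVEDRAFT_126499, had 64.8, 45.4 and 61.1 CPM in controls and 4.72, 3.2 and 3.93 CPM with AB, and its last, TRAVEDRAFT_48911, had 12.8, 15.6 and 14.6 CPM against 0.504, 0.603 and 1.09 CPM. The most abundant member in controls, TRAVEDRAFT_169894, averaged 342 ± 22.6 CPM there and 5.97 ± 1.57 CPM with AB. TRAVEDRAFT_65507, with 261 counts over the controls and none with AB, was at least 28.0-fold lower, taking 3 counts per library as the floor.

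The next longest lower runs lay on scaffolds 14 and 13, followed by 2 of 7 genes each on scaffold 5 (2557829 to 2573981, median -2.94, and 2181213 to 2198080, median -1.81). The run on scaffold 14 held 11 tested genes between 18379 and 153280, but 27 of the 38 models there were too low to be tested. Its steepest members were 3 adjacent genes, TRAVEDRAFT_24458, TRAVEDRAFT_53579 and TRAVEDRAFT_53580, and the last of these had 53.5, 41.4 and 89.8 CPM in controls and 0.378, 0.362 and 0.302 CPM with AB. The run on scaffold 13 held 8 genes between 649257 and 671698 with no untested model inside and a median of -3.98. It began with TRAVEDRAFT_53125, which had 320, 479 and 393 CPM in controls and 2.90, 2.95 and 5.56 CPM with AB. It lay beyond TRAVEDRAFT_174721, the gene with the largest fall. From that gene to the end of the run (603124 to 671698), 19 of 23 tested genes were called lower and 1 higher. Of the 19, 17 fell at least 2-fold. This span was chosen after the values were seen. It holds TRAVEDRAFT_174721 and the 8 run members by that choice, so part of the count was fixed beforehand. Over all tested genes 32.6% were called lower.

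LDO1 was part of a run as well. Between 604428 and 639016 on scaffold 1, 6 adjacent genes fell, with a median of -3.62. TRAVEDRAFT_67857 in it went from 2695 ± 99.7 to 37.8 ± 5.26 CPM (log2 fold change -6.16) and TRAVEDRAFT_55003 from 813 ± 140 to 8.396 ± 0.651 CPM (-6.60), so both fell more steeply than LDO1. MnP3s lay in another run of 6 fallen genes, on scaffold 10 between 2208860 and 2226640, with a median of -2.70. A later member of that run, TRAVEDRAFT_173014, had the largest fall there, from 234 ± 181 to 3.24 ± 0.0630 CPM. These 2 runs are described because they hold a gene with a symbol.

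The longest run of risen genes by number also held 12, on scaffold 8 between 2138146 and 2188991, but most of it was barely expressed. Only TRAVEDRAFT_30230 (39.1 ± 11.03 to 98.0 ± 15.5 CPM) and TRAVEDRAFT_59737 (4.55 ± 1.02 to 10.9 ± 0.706 CPM) exceeded 3 CPM in either group mean, and 15 of the 27 models in the span were not tested. TRAVEDRAFT_81808 had no control count and 31 counts with AB, at least 3.52-fold higher, and with that gene at its floor the median of the run was 2.76 in place of 3.32. Without control replicate 3 the longest run of risen genes held 8.

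A pair of shorter higher runs held abundant genes. On scaffold 9 between 806405 and 820055, 7 adjacent genes rose with no untested model between them and a median log2 fold change of 4.01. TRAVEDRAFT_30442 in it went from 41.7, 38.5 and 35.0 CPM to 2817, 3613 and 2637 CPM (6.30 ± 0.36, adjusted p 1.32e-08). TRAVEDRAFT_30445, at its end, went from 291, 108 and 210 CPM to 3925, 4206 and 3334 CPM (4.23 ± 0.31, adjusted p 1.13e-07). Every AB library exceeded every control in both. On scaffold 1 between 4885976 and 4908947, 8 adjacent genes rose with a median of 2.14, among them TRAVEDRAFT_55899 (106 ± 12.98 to 619 ± 19.2 CPM) and TRAVEDRAFT_55900, which went from 1.43, 1.52 and 0.943 CPM to 25.9, 30.4 and 27.2 CPM. TRAVEDRAFT_26150, one of the largest gains in CPM, lies on the same scaffold shortly before this run.

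**Figure D4:**
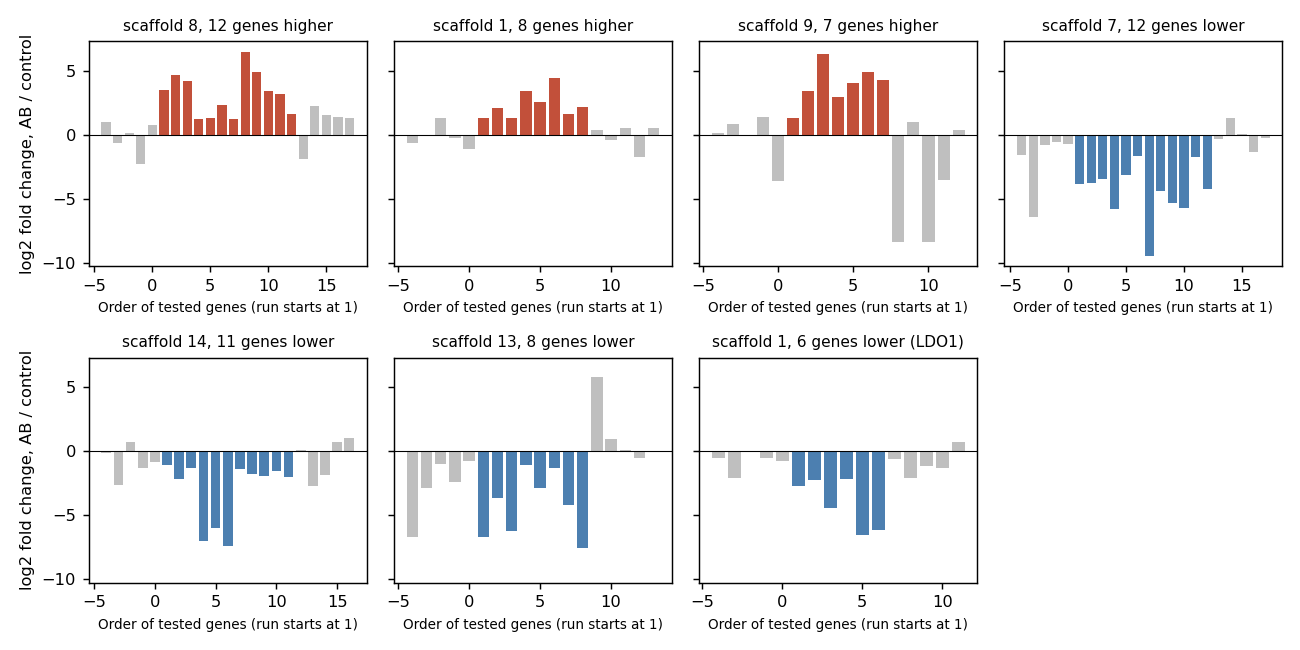
Log2 fold change of AB over control (y axis) for tested genes in scaffold order (x axis, the first gene of a run at 1), with 5 neighbours on each side in grey: the 3 longest runs of risen genes, the 3 longest of fallen genes and the run with LDO1. Bars of a run all point one way by its definition; the 5 genes before the scaffold 13 run are lower too, and steep falls follow the higher run on scaffold 9.

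Shorter genes had a lower share of rises, and a higher share of falls of at least 2-fold, than longer genes. Of the 2168 tested genes with the shortest exon length (150 to 782 bases) 23.9% were called higher and 33.7% lower, and of the 2168 longest (2091 to 15223 bases) 33.1% and 30.9%. At least 2-fold falls made up 22.002% of the shortest genes and 13.7% of the longest. Length and level were looked at separately, not together. Among the 2168 genes with the lowest level (mean of both groups up to 2.91 CPM) 19.9% were called higher and 26.1% lower, and among the 2168 with the highest (from 91.4 CPM) 37.6% and 32.5%.

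The AB libraries also differed from the libraries of the other phases at the same time and percentage. By edgeR's test, 4564 genes (42.1%) differed between AB and FW, 2189 higher and 2375 lower with AB, and 5871 (54.2%) differed between AB and SD, 2808 higher and 3063 lower. These comparisons share the AB libraries with the one against control, so their values are only set side by side. Of the 40 tested genes with a symbol, 20 were lower and 2 higher with AB than with FW, and 20 were lower and 6 higher than with SD. VP2 had 3248, 1217 and 3851 CPM with FW and 1233, 1443 and 1308 CPM with SD, within or above the range of the controls. MnP10s had 12.6 to 18.0 CPM with FW and 11.9 to 13.1 CPM with SD, in the range of the controls, and its log2 differences of AB from them were 4.68 and 4.95 (adjusted p 2.51e-06 and 1.16e-06). TRAVEDRAFT_26150, in contrast, was also high with FW, at 6482 to 7896 CPM, and its difference from AB was not called (0.56, adjusted p 0.416).

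The 7-day libraries repeat the exposure in other pellets, with their own controls, but time and batch cannot be told apart. There 334 of 10192 tested genes (3.28%) were called, 89 higher and 245 lower, with a coefficient of variation between replicates of 0.455 against 0.188 at 3 days. Leaving out the first of the 2 controls left 78 calls, and leaving out the other left none, with 1661 genes then at an unadjusted p under 0.05 (edgeR). Of the genes that rose at least 2-fold at 3 days and were tested at 7 days, 1246 of 1729 (72.1%) were higher with AB there too, and of those that fell, 1180 of 1739 (67.9%) were lower. Over all genes tested at both times the shares were 49.8% and 50.2%. For rises of at least 8-fold the share was 81.8% of 307, and for falls of at least 8-fold 66.2% of 293. More of these falls were not tested at 7 days (103 of 396, 26.0%) than of these rises (18 of 325, 5.54%), so the shares rest on unlike sets.

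Single genes divided into those with the same direction at both times and those without. VP2 had 360 and 340 CPM in the 7-day controls and 8.32, 3.83 and 3.15 CPM with AB (log2 fold change -6.10, adjusted p 0.0104). VP3at and LDO2 were also called lower at 7 days, at -6.20 and -2.06 (adjusted p 0.0273 and 0.0419). TvLac5, lower at 3 days, was called lower here as well (-4.11, adjusted p 0.0193), and TvLac3 and TvLac4, not called at 3 days, were called lower at 7 days (-3.67 and -3.69, adjusted p 0.0453 and 0.0266). TRAVEDRAFT_153507, TRAVEDRAFT_171861 and TRAVEDRAFT_136728 were called higher again, by 3.03, 5.23 and 5.66 on the log2 scale (adjusted p 0.0444, 0.0406 and 0.0116). MnP1s had 4.58 and 3.82 CPM in the 7-day controls and 155, 4.33 and 25.4 CPM with AB, so that its replicates spread over a wide range and it was not called (adjusted p 0.201).

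Other genes with large falls at 3 days were already low in the 7-day controls, on a scale normalised apart from the 3-day one. LDO1 had 53.5 and 101 CPM in the 7-day controls, and 590, 98.5 and 511 CPM with AB (log2 fold change 2.37, adjusted p 0.176). HTP3 had 2.99 and 4.37 CPM in those controls and 11.1, 3.60 and 4.56 CPM with AB (0.81, adjusted p 0.482). TRAVEDRAFT_174721 had 1.69 and 1.24 CPM in them, and TRAVEDRAFT_65852 had 4.35 and 4.08 CPM. None of the 4 was called at 7 days. Over the 396 genes that fell at least 8-fold at 3 days, the median control level was 39.3 CPM at 3 days and 1.46 CPM at 7 days, and over all tested genes it was 17.2 and 12.2 CPM. The first pair of medians describes genes chosen for high 3-day controls and carries no test.

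The runs also kept their direction to different degrees at 7 days. Members of the runs of risen genes were higher with AB in 88 of 111 cases tested at 7 days (79.3%). Among all genes that rose at least 2-fold at 3 days the share was 72.1%. Members of the runs of fallen genes were lower in 120 of 190 (63.2%), below the 67.9% of all genes that fell at least 2-fold. All 7 genes of the higher run on scaffold 9 and all 8 of the one on scaffold 1 had log2 fold changes above 0 at 7 days, but none of them was called there. Of the run with LDO1, none of the 5 genes tested at 7 days was lower, with a median log2 fold change of 1.42. On scaffold 7 only 4 of the 12 genes were tested at 7 days, and 3 of these were lower.

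**Figure D5:**
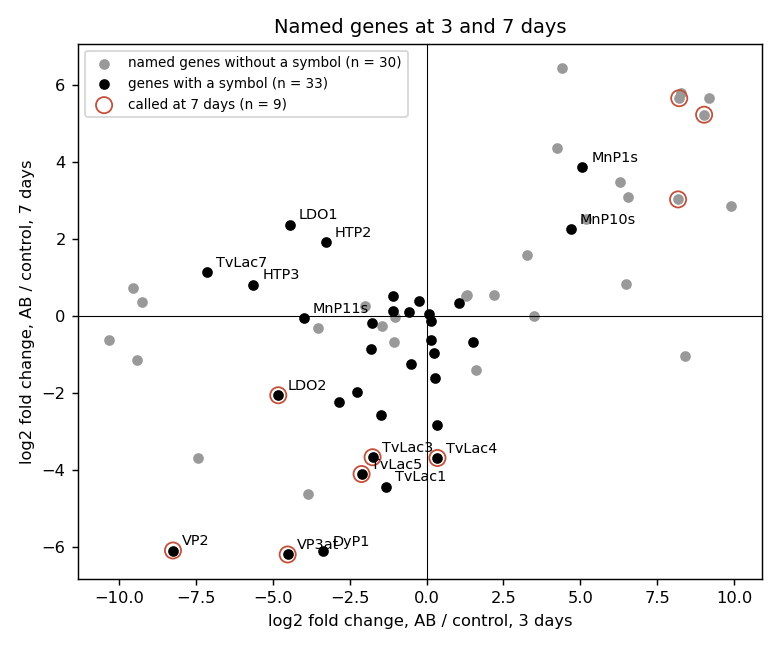
Log2 fold change of AB over control at 3 days (x axis) and at 7 days (y axis) for the 63 named genes tested at both times, from separate fits; circles mark the 9 called at 7 days. VP2, VP3at and LDO2 lie low at both times, MnP1s and MnP10s high, and LDO1, HTP2, HTP3 and TvLac7 lie to the lower side at 3 days but above 0 at 7 days.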

How the data were processed

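Each polyA-selected library came from 200 ng of RNA, per the labels' protocols. The authors deposited raw whole-number counts of reads for each gene model. The submitters' processing notes name HISAT2 and featureCounts. Versions, genome build, strand setting and the handling of multiply mapped reads were not given in the sources used here. Among the 14296 models 280 overlap another, 158 on the opposite strand. Names come from the RefSeq table of Trametes versicolor v1.0, joined on identical start and end positions (14214 matched, 42 with a symbol); printed coordinates are those of the deposited tables.

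The 12 libraries at 3 days were fitted together with edgeR 4.0.16 in R 4.3.3 (TMM scaling, default filter on low counts by group, quasi-likelihood F test, two-sided, Benjamini-Hochberg adjusted p of 0.05, 8 residual degrees of freedom), and the 5 libraries at 7 days apart (3 degrees of freedom). Each adjusted p of a gene comes from this test. An SE is the absolute log2 fold change divided by the square root of F and is approximate where a group has few counts. The labels call the samples biological replicates without naming separate cultures, so p-values measure the spread between these samples. Intervals and floors cover counting error only. The fits alone were tested on simulated counts, with far fewer changed genes than were called here and smaller changes than the largest found. The later steps, such as pairs, runs and lists, were not tested in this way.

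Named genes are, first, all genes with a symbol, which include the largest rise and fall of each larger gene list. Next come the 6 steepest rises and falls among called genes without overlap and with a mean of at least 10 CPM in a group. The 4 largest gains and losses in CPM were taken among all called genes. The ends and largest change of the 3 longest runs in each direction complete the set. Further run members were chosen after their values were seen. The comparison, the lists and the rules were chosen with earlier results of these data known. Of 48 gene lists planned, 41 needed product names or protein signatures and were not used here. Replicate numbers did not pair AB with control samples (same-number correlations of deviations -0.05, -0.22 and 0.01). Alternatives were DESeq2 1.42.0, RLE size factors, no filter, a mean of at least 10 CPM, changes of at least 2-fold only, each library left out in turn, the compared groups alone, a replicate block, and 2 other definitions of runs.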

Additional observations from a re-analysis of the deposited data

Results flagged for a closer look

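Several named genes had values on opposite sides of the control with AB and with another phase. The difference between the phases was tested directly with edgeR, but that of FW or SD from control was not tested. MnP3s, lower than control with AB, stood above control by 4.11 with FW and 2.85 with SD on the log2 scale. Its log2 difference of AB was -6.97 from FW (adjusted p 1.28e-05) and -5.71 from SD (adjusted p 3.19e-05). MnP4s, in the same group on scaffold 10, differed likewise by -4.96 from FW and -3.05 from SD (adjusted p 1.01e-08 and 3.86e-07). HTP2 differed by -4.13 from FW and -3.95 from SD (adjusted p 3.45e-08 and 3.53e-08), and stood above control by 0.86 with FW and 0.67 with SD.

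Among genes without a symbol, TRAVEDRAFT_86104 differed by -10.80 from FW (adjusted p 2.62e-09) and TRAVEDRAFT_42584 by -10.67 from SD (adjusted p 5.39e-10). TRAVEDRAFT_53125, the first gene of the lower run on scaffold 13, differed by -7.18 from FW (adjusted p 1.53e-09). TRAVEDRAFT_75260, the first gene of the lower run on scaffold 14, differed by -1.22 from SD (adjusted p 3.67e-06). On the log2 scale TRAVEDRAFT_53125 stood only 0.47 above control with FW, and TRAVEDRAFT_75260 only 0.14 with SD. Most of these 2 differences was thus the fall with AB.

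At 7 days all AB libraries lay above both controls for 2 of the genes named by the rule whose AB libraries all lay below control at 3 days. HTP2 had a log2 fold change of 1.91 at 7 days, with 0.655 to 4.64 CPM over the 5 libraries, and TRAVEDRAFT_65852 one of 0.37, with 4.08 to 6.79 CPM. TRAVEDRAFT_55003 and TRAVEDRAFT_157673, both in the run with LDO1, had the same pattern, with log2 fold changes of 1.42 and 1.58 at 7 days. So did TRAVEDRAFT_41317 of that run, at most 0.374 CPM in the 5 libraries and too low to be tested there. For these genes, the difference between the times was not tested.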

How the results depend on the processing

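No called gene among the 76 named changed direction under any alternative run. Of 887 alternative values of these genes, 15 lost a call and 10 gained one; the calls lost were those of LiP4, MnP13, TvLac6, TvFet3A and TRAVEDRAFT_49729 when single libraries were left out. Among uncalled genes, 5 changed sign (LiP3, LiP9, TvLac1, TvLac2 and TvLac3). A mean of at least 10 CPM left 2188 genes higher and 2351 lower with AB than control, with fewer genes tested. A 2-fold minimum, stricter by construction, left 1844 higher and 2010 lower than control, 864 and 1367 against FW, and 1348 and 1723 against SD. With the replicate block, 3221 genes were higher and 3460 lower than control at 3 days, where replicate numbers are shared names only. At 7 days the block was fitted without AB replicate 3, which has no control of the same number, and 94 genes were higher and 111 lower. Leaving out that library alone left 60 higher and 104 lower, against 89 and 245 with all libraries. Without a fold minimum there were 95 runs of risen and 164 of fallen genes; with untested models breaking runs, the longest held 8 and 10 genes. Leaving out 1 library moved the 7-day counts between 0 and 316 higher and between 0 and 373 lower, and the laccases called lower between 2 and 4; the cause was not tested. Genes near 3 counts per library cannot be resolved at this depth.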
